A study of Danio rerio with 12 samples.

Results

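The enzymes that make cholesterol and fatty acids, with the receptors, sensors and transporters that govern cellular cholesterol, were followed in RNA from whole brains of adult zebrafish homozygous for a mutation of the glucocorticoid receptor (GR). The members were taken from a list of 34 zebrafish symbols, matched without regard to case, and every gene ID was counted where a symbol appears without its paralog letter. The symbol *fads2* was matched to no ID, and SQLE, NPC2 and ACLY each named 2 IDs, so that the list came to 36 of the 32520 gene IDs in the files, with 19 for sterol synthesis, 10 for sterol uptake, sensing and transport, and 7 for fatty acid synthesis. A gene entered the tests if 6 or more of the 12 libraries held 10 or more of its normalised counts (read counts scaled between libraries by the authors), and 35 of the 36 did.

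GR, encoded by *nr3c1*, is the nuclear receptor through which cortisol acts on transcription. The GR-mutant group held 6 brains of genotype gr s357/s357 and the wild-type group 6 brains of genotype gr +/+, with 1 library made from each brain. All fish were males aged 22 months, descended from in-crosses of heterozygotes and genotyped from fin clips, and every cell of a mutant fish carried the allele. The genotypes were housed in separate tanks, so that tank and genotype cannot be told apart. The dissected brains kept their olfactory bulbs and pituitary, and in such bulk tissue fewer cells of a type and less RNA per cell cannot be told apart.

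Between 24809137 and 36313866 reads were assigned to genes in GR-mutant libraries, and between 24407683 and 37548901 in wild-type libraries. Transcripts of *nr3c1* itself averaged 4817 ± 116 normalised counts in GR-mutant brains and 4329 ± 199.6 in wild-type brains (SD, n = 6 each, as for every mean given with ± and not marked SE). This was a rise (log2 fold change 0.15, adjusted p = 0.016, limma). The count does not check the genotype because it carries no base change. Across all 20114 tested genes, 1527 rose (7.59%) and 1996 fell (9.92%) in GR-mutant brains, with a median log2 fold change of 0.01. Skeletal muscle markers summed to 26748 normalised counts in GR-mutant 5 and 13735 in wild-type 1, and to 1000.3 or less in each of the other libraries. Summed pituitary markers also varied widely, from 388.6 in GR-mutant 1 to 87419 in GR-mutant 3, and from 6803 to 46116 in wild-type brains. Summed neuron markers ran at 336058 to 361862 normalised counts in GR-mutant brains and 357982 to 387151 in wild-type brains. Of 16 neuron markers none rose and 2 fell, against the 7.59% and 9.92% of all tested genes. Positive log2 fold changes were found for 5 of the 16, against 51.9% of all tested genes, with a median of -0.06.

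Cells build cholesterol from acetyl-CoA through mevalonate, farnesyl diphosphate, squalene and lanosterol. Transcription of these genes is governed by SREBP factors, which are carried by Scap from the endoplasmic reticulum for activation when membrane sterol is low and are held back by Insig proteins when it is high. The mammalian brain makes its own cholesterol behind the blood-brain barrier, much of it in myelinating glia and astrocytes, while fatty acid synthase and the desaturases and elongases downstream of it build acyl chains from the same acetyl-CoA.

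Some sterol synthesis genes rose in GR-mutant brains, at HMG-CoA synthase and at 5 of the 11 tested genes from squalene synthase onwards, and most did not pass. The core enzymes of fatty acid synthesis were not called. Of 18 tested sterol synthesis genes, 6 rose (*hmgcs1*, *fdft1*, *lss*, *tm7sf2*, *ebp* and *sc5d*) and none fell, by limma with Benjamini-Hochberg adjustment over all tested genes, against 7.59% of all genes that rose and 9.92% that fell. Of the 7 fatty acid synthesis genes, *scd* rose, *elovl6* fell and 5 did not pass. Among the 10 uptake, sensing and transport genes only *srebf1* rose. In all, 8 of the 35 tested members rose, 1 fell and 26 did not pass. With equal totals, that is with all libraries brought to 1 common sum of counts, 15 members rose, 10 of them in sterol synthesis, but so did 15.0% of all genes tested under that scaling, and the median of all genes shifted to 0.09. An unadjusted p under 0.05 with a higher level in GR-mutant brains was found for 10 of the 18 sterol synthesis genes, against 15.9% of all tested genes. The same held for 4 of the 10 uptake, sensing and transport genes. Of the 7 fatty acid synthesis genes 3 had such a p, and 1 of these was higher. Positive log2 fold changes were found for 17 of 18 sterol synthesis genes, 8 of 10 uptake, sensing and transport genes and 2 of 7 fatty acid synthesis genes, against 51.9% of all tested genes. The median log2 fold change was 0.28 for sterol synthesis, 0.20 for uptake, sensing and transport, and -0.06 for fatty acid synthesis, the last at 0.02 with equal totals.

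**Figure D1:**
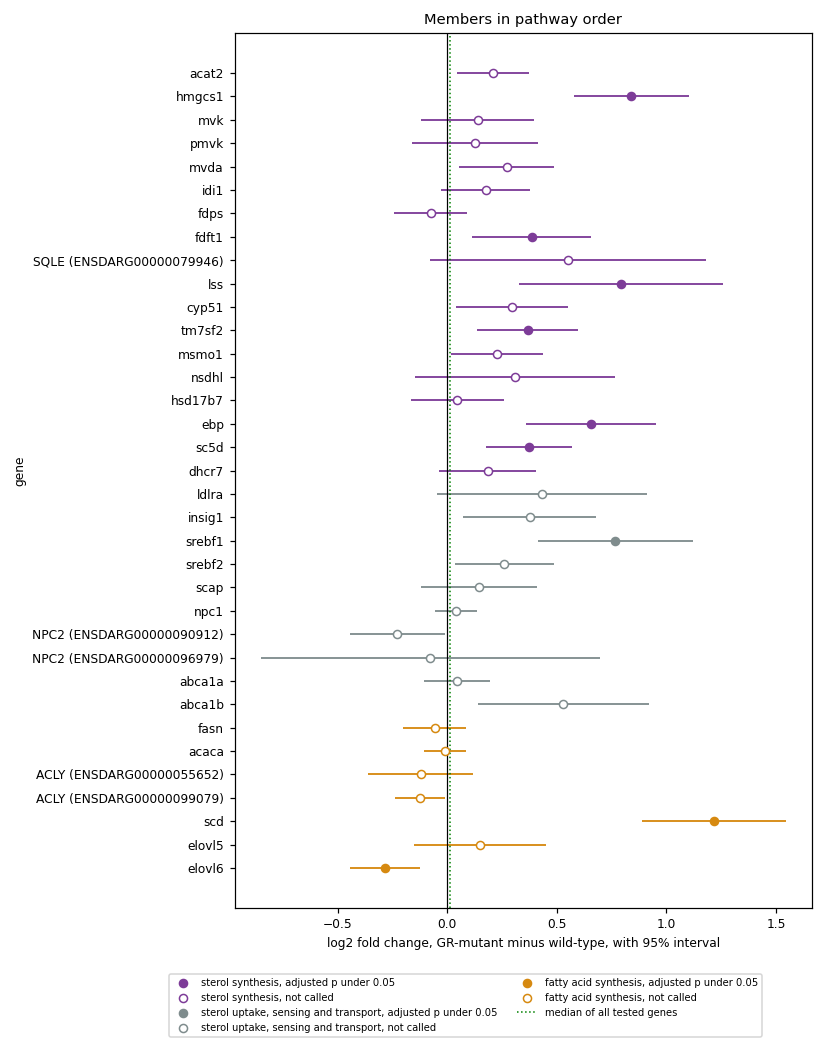
Log2 fold change of GR-mutant over wild-type brains (x axis) for the 35 tested members in pathway order (y axis), with 95% intervals from limma; filled points passed an adjusted p of 0.05, and the dotted line marks the median of all tested genes (0.01). Sterol synthesis genes lie mostly to the right of 0, with *hmgcs1* at 0.84 and *lss* at 0.79, while *fasn*, *acaca* and both ACLY IDs lie between -0.13 and -0.01 (*fasn* and *acaca* at 0.02 and 0.07 with equal totals, where the median of all genes was 0.09).

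Near the start of the pathway the gene of HMG-CoA synthase rose. This gene, *hmgcs1*, was counted at 1125, 1161 and 1407 normalised counts in GR-mutant brains (lowest, median and highest), against 520.4, 665 and 925 in wild-type brains. Every GR-mutant brain lay above every wild-type brain, which was true of 3.35% of all tested genes and of 4 members (*hmgcs1*, *ebp*, *sc5d* and *scd*). The rise was 1.76-fold in the means (log2 fold change 0.84 ± 0.12 (SE), adjusted p = 0.000518, limma, n = 6 each). The thiolase gene *acat2*, which joins acetyl-CoA units at the start of the pathway, averaged 1254 ± 75.2 in GR-mutant and 1091 ± 127 in wild-type brains (log2 fold change 0.21, 95% interval 0.04 to 0.37, adjusted p = 0.0784).

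From mevalonate to farnesyl diphosphate, the stretch that also feeds other isoprenoids, none of 5 tested genes passed. The decarboxylase gene *mvda* had the largest difference and averaged 304 ± 17.5 in GR-mutant and 254 ± 41.2 in wild-type brains (log2 fold change 0.27, 95% interval 0.05 to 0.49, adjusted p = 0.0835). The mevalonate kinase gene *mvk*, the phosphomevalonate kinase gene *pmvk* and the isopentenyl diphosphate isomerase gene *idi1* had log2 fold changes of 0.14, 0.13 and 0.17, with adjusted p of 0.461, 0.544 and 0.216. The farnesyl diphosphate synthase gene *fdps* had a negative value (log2 fold change -0.08, 95% interval -0.24 to 0.09, adjusted p = 0.538). With equal totals, which moved the median of all genes to 0.09, the value of *fdps* was 0.01.

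Squalene and lanosterol formation commit the pathway to sterols. The squalene synthase gene *fdft1* was counted at 155, 198 and 250.3 normalised counts in GR-mutant brains (lowest, median and highest), against 131, 152 and 184 in wild-type brains, and its rise only just passed (log2 fold change 0.38 ± 0.13 (SE), adjusted p = 0.0499). In 4 GR-mutant brains it exceeded every wild-type brain and the lowest, GR-mutant 6, lay near the wild-type median. This call was lost in 13 of the 23 alternative settings, 11 of them with libraries left out. The lanosterol synthase gene *lss*, which closes squalene epoxide into the sterol ring system, was counted at 171, 242 and 274 in GR-mutant brains, against 95.9, 112 and 241 in wild-type brains, a 1.66-fold rise (log2 fold change 0.79 ± 0.22 (SE), adjusted p = 0.0233). Below every GR-mutant brain lay 4 wild-type brains, while wild-type 2 and wild-type 4 were higher, at 186 and 241 normalised counts. Without GR-mutant 5 the call of *lss* was lost (adjusted p = 0.052).

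Squalene epoxidase, named SQLE in the table, has 2 gene IDs. SQLE (ENSDARG00000079946) was counted at 211, 263 and 373 in GR-mutant brains, against 77.6, 197 and 386 in wild-type brains, with the largest standard error of the sterol synthesis genes and no call (log2 fold change 0.55, 95% interval -0.08 to 1.18, adjusted p = 0.21). Wild-type 1 was the lowest of all 12 brains for this gene and wild-type 4 the highest. SQLE (ENSDARG00000063319) did not meet the filter, with at least 10 normalised counts in 3 libraries and at most 9.52 in GR-mutant and 20.1 in wild-type brains, and was not tested.

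All 8 genes from lanosterol to cholesterol had positive log2 fold changes, with a median of 0.30, and 3 rose. The sterol isomerase gene *ebp* was counted at 394, 470.5 and 494 normalised counts in GR-mutant brains (lowest, median and highest), against 204, 292 and 386 in wild-type brains. The genotypes did not overlap (log2 fold change 0.65 ± 0.14 (SE), adjusted p = 0.00613). The sterol desaturase gene *sc5d* was counted at 273, 321 and 352 in GR-mutant brains, against 204, 247 and 269 in wild-type brains (log2 fold change 0.37 ± 0.09 (SE), adjusted p = 0.0132), and its groups were separated by a narrow margin. The sterol reductase gene *tm7sf2* was counted at 539, 591 and 763 in GR-mutant brains, against 381, 475 and 607 in wild-type brains (log2 fold change 0.37 ± 0.11 (SE), adjusted p = 0.0316). In 2 GR-mutant brains it exceeded the highest wild-type brain, wild-type 7, and the other 4 lay between that brain and the rest of the wild-type group. This call was lost in 8 settings, each with libraries left out, at adjusted p of 0.0525 to 0.0973.

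The other genes of these late steps did not pass. The lanosterol demethylase gene *cyp51* averaged 1135 ± 104 in GR-mutant and 938 ± 204 in wild-type brains (log2 fold change 0.30, 95% interval 0.04 to 0.55, adjusted p = 0.101). The sterol methyl oxidase gene *msmo1* averaged 889.7 ± 97.4 in GR-mutant and 762 ± 113 in wild-type brains (log2 fold change 0.23, 95% interval 0.02 to 0.44, adjusted p = 0.122). For both, wild-type 4 was the highest wild-type brain, and without it both passed, with adjusted p of 0.0139 for *cyp51* and 0.0319 for *msmo1*. The log2 fold changes of *nsdhl* and *hsd17b7*, whose products act with Msmo1 to remove some of the sterol methyl groups, and of *dhcr7*, the final reductase of a route to cholesterol, were 0.31, 0.05 and 0.18, with adjusted p of 0.34, 0.788 and 0.236.

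**Figure D2:**
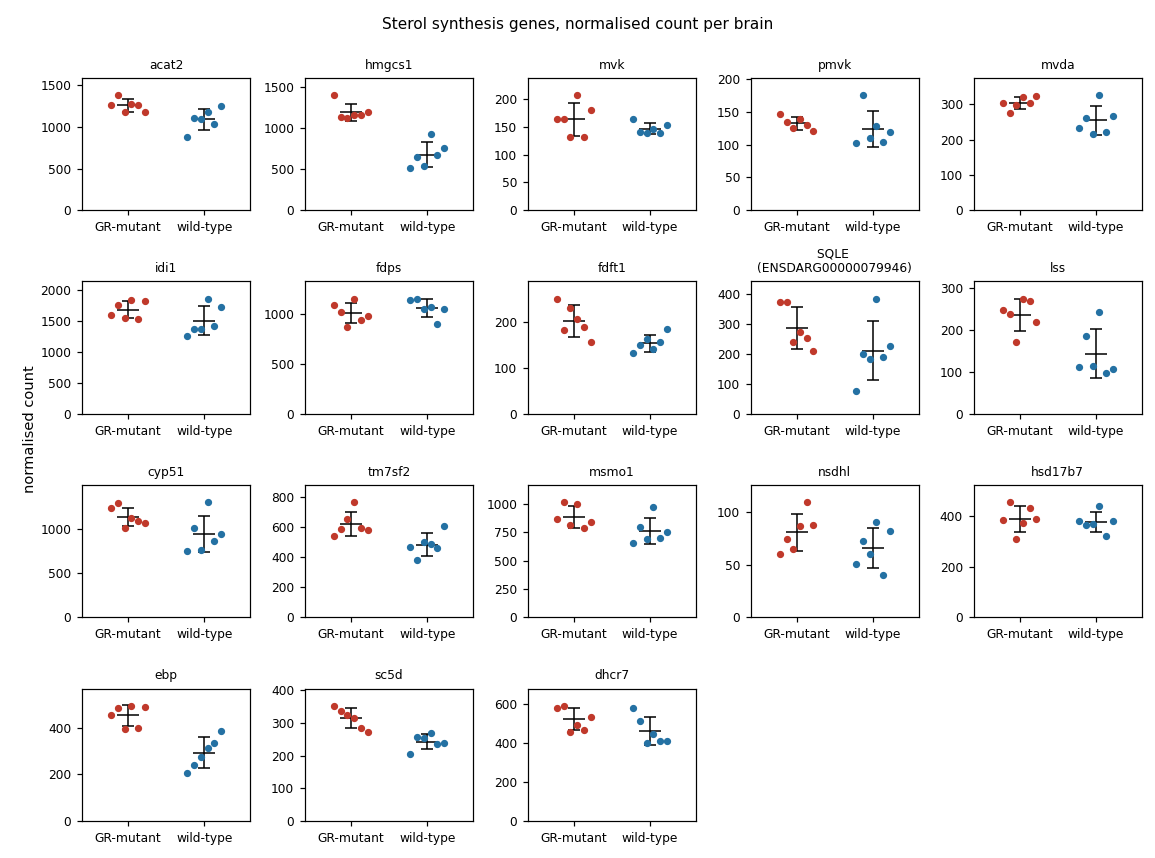
Normalised counts (y axis, from 0, scaled per gene) of the 18 tested sterol synthesis genes in GR-mutant (left, red) and wild-type brains (right, blue), 1 point per brain with the mean and SD in black (n = 6 each). *hmgcs1*, *ebp* and *sc5d* do not overlap between the genotypes, and *lss* overlaps through wild-type 2 and wild-type 4.

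Of the 4 genes for sterol sensing and transcription, 1 rose. The gene *srebf1*, which encodes the SREBP tied mainly to fatty acid synthesis in mammals, was counted at 588, 905 and 1164 normalised counts in GR-mutant brains (lowest, median and highest), against 352, 556 and 628 in wild-type brains. In 5 GR-mutant brains it exceeded every wild-type brain, GR-mutant 6 lay inside the wild-type range, and the rise was 1.71-fold (log2 fold change 0.77 ± 0.16 (SE), adjusted p = 0.00685). The gene *srebf2*, for the SREBP tied mainly to sterol synthesis, was counted at 3048, 4130.0 and 4348 in GR-mutant brains, against 2603, 3308 and 3893 in wild-type brains and did not pass (log2 fold change 0.26, 95% interval 0.03 to 0.49, adjusted p = 0.103). GR-mutant 6 was again the lowest of its group, and without it *srebf2* passed (adjusted p = 0.0293). The gene *insig1*, for the sterol-dependent brake and itself a target of SREBP in mammals, averaged 3442 ± 331 in GR-mutant and 2712 ± 660.0 in wild-type brains (log2 fold change 0.38, 95% interval 0.07 to 0.68, adjusted p = 0.0832), and *scap*, for the SREBP escort, 525 ± 82.8 in GR-mutant and 475 ± 68.8 in wild-type brains (log2 fold change 0.14, 95% interval -0.12 to 0.41, adjusted p = 0.447).

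Receptors and transporters were not called. The LDL receptor gene *ldlra* averaged 114 ± 23.4 in GR-mutant and 87.4 ± 30.4 in wild-type brains (log2 fold change 0.43, 95% interval -0.05 to 0.91, adjusted p = 0.196), while *ldlrb*, a member of the wider control list, rose (log2 fold change 0.54, adjusted p = 0.0277). The lysosomal export gene *npc1* lay within a narrow interval (log2 fold change 0.04, 95% interval -0.06 to 0.14, adjusted p = 0.568). Its partner NPC2 (ENSDARG00000090912), the soluble lysosomal sterol carrier, averaged 1331 ± 148 in GR-mutant and 1567 ± 243 in wild-type brains (log2 fold change -0.23, 95% interval -0.45 to -0.01, adjusted p = 0.131), and NPC2 (ENSDARG00000096979), a gene with few counts, had 12.05 to 21.99 normalised counts in GR-mutant and 10.04 to 41.9 in wild-type brains. Of the efflux pump genes, *abca1a* was at 5967 to 7004 in GR-mutant and 5616 to 7205 in wild-type brains, whereas *abca1b* was counted at 447, 565 and 924 in GR-mutant brains, against 289.9, 383 and 575 in wild-type brains and missed the threshold (log2 fold change 0.53, 95% interval 0.14 to 0.92, adjusted p = 0.0598). The highest value of *abca1b*, 924 in GR-mutant 2, stood far above the rest of its group. The gene passed in 5 of the 23 alternative settings, DESeq2 on the recovered reads among them (adjusted p = 0.027).

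Fatty acid synthesis showed its largest difference at a desaturase. The gene *scd*, for stearoyl-CoA desaturase, which makes monounsaturated fatty acids, was counted at 269, 286 and 325 normalised counts in GR-mutant brains (lowest, median and highest), against 90.4, 126 and 179 in wild-type brains. All GR-mutant brains stood well above all wild-type brains, and the 2.27-fold rise was the largest among the members (log2 fold change 1.22 ± 0.15 (SE), adjusted p = 0.000147). The related gene *scdb* was not called, at 17409 ± 1723 in GR-mutant and 17856 ± 1779 in wild-type brains (log2 fold change -0.04, adjusted p = 0.779).

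The 4 IDs that carry acetyl-CoA to palmitate all had small negative values and none passed. With equal totals, which moved the median of all genes to 0.09, *fasn* and *acaca* were at 0.02 and 0.07. Fatty acid synthase, *fasn*, averaged 8554 ± 708 in GR-mutant and 8908 ± 768 in wild-type brains (log2 fold change -0.06, 95% interval -0.20 to 0.09, adjusted p = 0.589). The acetyl-CoA carboxylase gene *acaca*, whose product makes the malonyl-CoA used for chain growth, averaged 4006 ± 174 in GR-mutant and 4038 ± 206 in wild-type brains (log2 fold change -0.01, 95% interval -0.11 to 0.08, adjusted p = 0.888). ATP citrate lyase, which releases acetyl-CoA from citrate, had intervals of -0.36 to 0.12 for ACLY (ENSDARG00000055652) and -0.24 to -0.01 for ACLY (ENSDARG00000099079), with adjusted p of 0.482 and 0.121. ACLY (ENSDARG00000099079) averaged 3681 ± 238 in GR-mutant and 4016 ± 253 in wild-type brains. In 5 GR-mutant brains it lay below every wild-type brain.

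Elongation was split. The gene *elovl6*, for the elongase that extends palmitate, was counted at 1992, 2168 and 2619 in GR-mutant brains, against 2541, 2747 and 2983 in wild-type brains, and it fell (log2 fold change -0.28 ± 0.07 (SE), adjusted p = 0.0195). In 4 GR-mutant brains it lay below every wild-type brain, and GR-mutant 4 and GR-mutant 6 lay inside the wild-type range. In the RefSeq gene table *elovl6*, *abca1b* and *nsdhl* are on the chromosome of *nr3c1*, out of 32 member symbols found there, so for these genes variants inherited with the mutation cannot be told apart from the mutation. The elongase gene *elovl5*, which acts on polyunsaturated chains, was not called (log2 fold change 0.15, 95% interval -0.15 to 0.45, adjusted p = 0.495). The names at hand do not settle whether FADS3 (ENSDARG00000019532), a desaturase ID named only by its human symbol, is *fads2*. This ID was picked after its values were seen and is not among the 7 fatty acid synthesis genes counted. It averaged 6033 ± 608 in GR-mutant and 7708 ± 908 in wild-type brains (log2 fold change -0.35 ± 0.09 (SE), adjusted p = 0.0134).

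**Figure D3:**
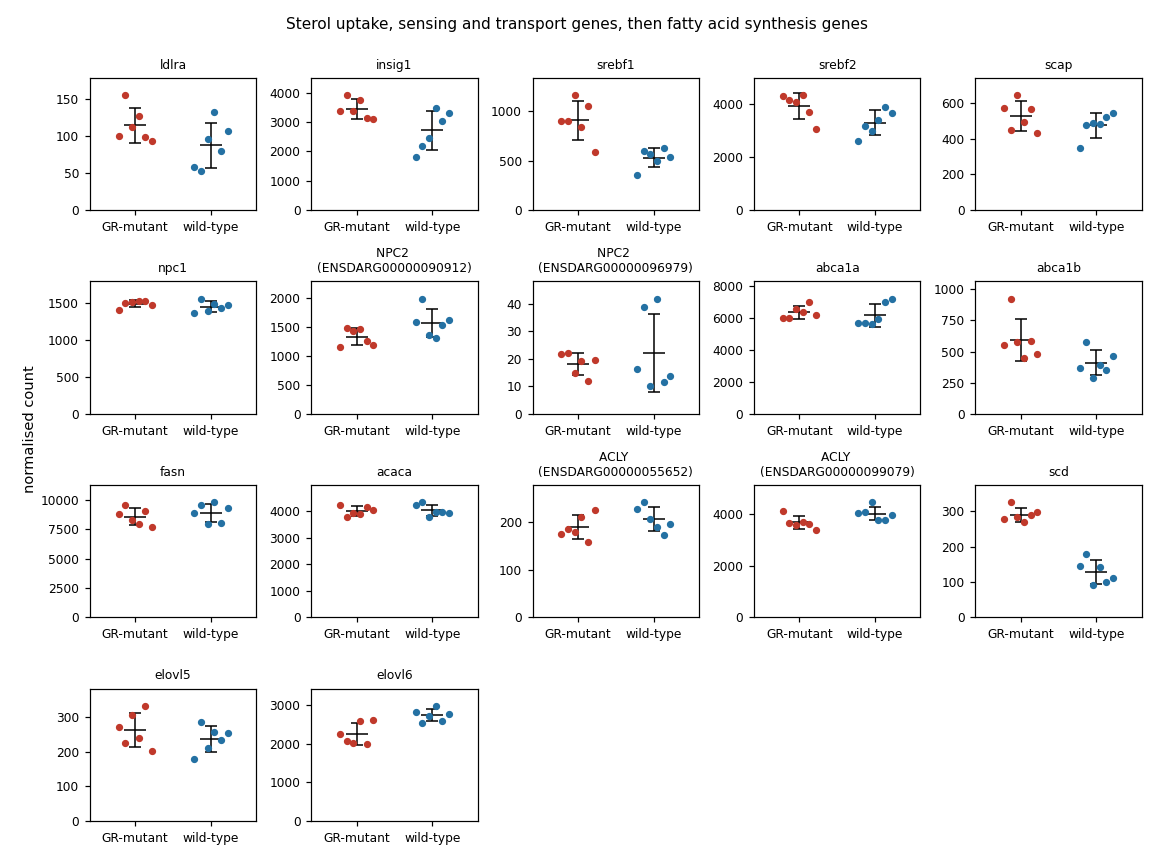
Normalised counts (y axis, from 0, scaled per gene) of the uptake, sensing and transport genes and the fatty acid synthesis genes in GR-mutant (left, red) and wild-type brains (right, blue), 1 point per brain with the mean and SD in black (n = 6 each). *scd* separates the genotypes fully, *srebf1* does so but for GR-mutant 6, and *fasn* and *acaca* overlap throughout.

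Both branches were then set side by side in each brain. A brain's branch level was taken as the median over genes of its log2 value minus the wild-type mean, a description with no test. Sterol synthesis stood at 0.13 to 0.40 in GR-mutant brains and -0.24 to 0.19 in wild-type brains, so that wild-type 4 reached into the mutant range. Fatty acid synthesis stood at -0.11 to 0.04 in GR-mutant brains and -0.10 to 0.12 in wild-type brains. The difference of sterol minus fatty acid synthesis was 0.21 to 0.45 in GR-mutant brains and -0.28 to 0.09 in wild-type brains, with no overlap.

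**Figure D4:**
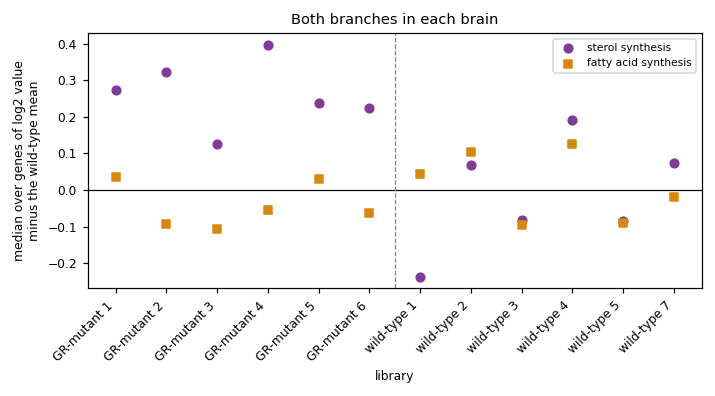
Branch level (y axis, median over genes of the log2 value minus the wild-type mean) of sterol synthesis (purple circles) and fatty acid synthesis (orange squares) in each of the 6 GR-mutant and 6 wild-type brains (x axis). Circles lie above squares in every GR-mutant brain, by 0.21 to 0.45. In wild-type brains the difference was -0.28 to 0.09, and circles lie above squares in wild-type 3, 4, 5 and 7.

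Wild-type 4 was the highest of the 6 in 10 of 18 sterol synthesis genes, against 13.7% of all tested genes, and wild-type 1 was the lowest in 10 of 18, against 22.3% of all genes. With both left out, a setting chosen after seeing the data, 8 members rose and none fell, *elovl6* being lost (adjusted p = 0.0922). The count of sterol synthesis rises was again 6, not necessarily of the same genes. Without GR-mutant 5 that count was 3 and 5 members rose, as *fdft1*, *lss* and *tm7sf2* did not pass. Over all tested genes, 831 of 19770 rose with wild-type 1 and 4 left out, against 1527 of 20114 with all libraries. The rises over all genes without GR-mutant 5 are not given here.

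**Figure D5:**
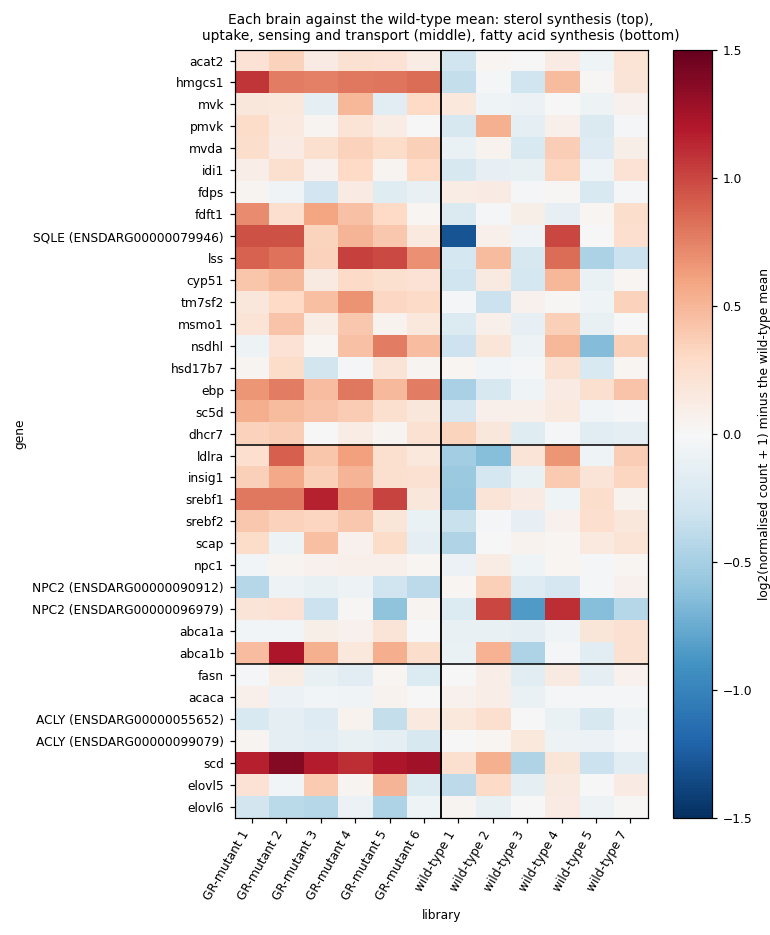
Log2(normalised count + 1) minus the wild-type mean (colour, red higher, blue lower) for the 35 tested members (rows) in each GR-mutant (left) and wild-type (right) brain (columns), with lines between the 3 groups of genes. The red of *hmgcs1*, *lss*, *ebp* and *scd* runs through the GR-mutant columns, and wild-type 4 shares it for several sterol synthesis genes.

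The rest of the pathway was taken from wider lists, whose counts stand against the 7.59% of all tested genes that rose and the 9.92% that fell. Among 20 other genes of sterol synthesis and its control, 1 rose (*ldlrb*) and 4 fell, with a median log2 fold change of -0.01. The sterol carrier gene *stard4* averaged 195 ± 15.0 in GR-mutant and 279 ± 51.0 in wild-type brains (log2 fold change -0.50 ± 0.11 (SE), adjusted p = 0.00983). Both IDs of MYLIP, the ligase that sends the LDL receptor for degradation in mammals, fell, MYLIP (ENSDARG00000008859) by 0.29 and MYLIP (ENSDARG00000055118) by 1.04 on the log2 scale (adjusted p = 0.00735 and 0.00778). Only 1 ID of POR, the reductase that feeds electrons to Cyp51 and other cytochrome P450 enzymes, fell. POR (ENSDARG00000055092) averaged 1367 ± 66.5 in GR-mutant and 2294 ± 532 in wild-type brains (log2 fold change -0.71 ± 0.13 (SE), adjusted p = 0.00266), with every GR-mutant brain below every wild-type brain. The same was true of *stard4* and MYLIP (ENSDARG00000008859). The share of all tested genes separated in this direction is not given here. POR (ENSDARG00000059035) was not called, at 2367 ± 294 in GR-mutant and 2660 ± 356 in wild-type brains (log2 fold change -0.17, adjusted p = 0.252).

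Carriers, oxysterol enzymes and efflux pumps gave 3 rises (*abca7*, *cyp7b1* and *osbp2*) and 1 fall (the HDL receptor gene *scarb1*) among 26, with a median of 0.03. At an unadjusted p under 0.05, 8 of these 26 were higher, against 15.9% of all tested genes. Among the 20 other genes of sterol synthesis and its control, 2 were higher at that p. The oxysterol hydroxylase gene *cyp7b1* averaged 117 ± 9.24 in GR-mutant and 85.4 ± 16.1 in wild-type brains (log2 fold change 0.46 ± 0.14 (SE), adjusted p = 0.0309). Of 14 other isoprenoid genes only *rabggta* changed, a fall of 0.14 on the log2 scale (adjusted p = 0.0447). Among 38 other fatty acid genes 1 rose (the malic enzyme gene *me2*) and 3 fell, *mid1ip1b*, ACSL4 (ENSDARG00000010752) and *hsd17b12a*, a reductase of the elongation cycle that averaged 975 ± 87.5 in GR-mutant and 1524 ± 207 in wild-type brains (log2 fold change -0.64 ± 0.09 (SE), adjusted p = 0.000427). Of 27 lipid storage and breakdown genes, *lpin1b* rose and *plin2*, for a lipid droplet coat protein, fell, averaging 293 ± 95.3 in GR-mutant and 464 ± 24.2 in wild-type brains (log2 fold change -0.71 ± 0.15 (SE), adjusted p = 0.00638).

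Myelinating glia and astroglia are major makers of brain sterol in mammals, so their markers were summed in each brain, with the same shares of all genes (7.59% that rose and 9.92% that fell) as the background of the marker counts. Summed oligodendrocyte and myelin markers ran at 185517 to 396170 normalised counts in GR-mutant brains and 248049 to 315932 in wild-type brains, and of 13 markers 2 rose (*sox10* and *cnp*) and 1 fell (*olig1*). Positive log2 fold changes were found for 8 of these 13, against 51.9% of all tested genes, with a median of 0.14. At an unadjusted p under 0.05, 3 of the 13 were higher, against 15.9% of all tested genes. Summed radial glia and astroglia markers ran at 113541 to 134431 in GR-mutant brains and 131203 to 150280 in wild-type brains, and of 12 tested markers 2 rose (*sox2* and FABP7 (ENSDARG00000007697)) and both IDs of GLUL, glutamine synthetase, fell. Although the sums ran lower, 7 of the 12 had positive log2 fold changes, with a median of 0.10, and 3 were higher at an unadjusted p under 0.05. No listed marker of either type was at 0 in every library. Endothelial markers summed to 5716 to 7533 in GR-mutant and 5708 to 6711 in wild-type brains. Of 12 endothelial markers 2 rose (CLDN5 (ENSDARG00000043716) and SLC2A1 (ENSDARG00000001437)) and 1 fell (*kdrl*), with a median log2 fold change of 0.19, and 5 were higher at an unadjusted p under 0.05, against 15.9% of all tested genes. Among these 12, 9 had positive log2 fold changes, against 51.9% of all tested genes. Microglia and macrophage markers summed to 10024, 13219 and 14628 in GR-mutant brains (lowest, median and highest), against 10725, 16758 and 24686 in wild-type brains, and of 9 markers none rose and *lcp1* fell. Only 3 of these 9 had positive log2 fold changes, against 51.9% of all tested genes, with a median of -0.20. None of the 9 was higher at an unadjusted p under 0.05, against 15.9% of all tested genes. The 4 that reached this p were lower, and the share of all tested genes that were lower at this p is not given here. The part of these differences in the sterol result was not tested.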

How the data were processed

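Poly(A)-selected RNA of 12 brains was sequenced as paired-end directional libraries. Per the labels and methods, the authors used Trimmomatic (3.9 in the submitters' processing notes) for trimming, SortmeRNA against ribosomal reads, FastQC and MultiQC for quality, STAR for alignment to GRCz11 and counting by gene, and DESeq2 size factors for scaling. Whether counting used strand is not stated in those sources. The deposited values are thus a signal, normalised counts, in 1 table per brain, and give no comparison columns. In every library 100% of values were whole multiples of the value of 1 read within 0.001 read, and the recovered reads served the count tests among the alternatives.

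Values were taken as log2(value + 1) and fitted with limma 3.58.1 (R 4.3.3) with its trend option over the 20114 genes that reached 10 normalised counts in 6 or more libraries, with Benjamini-Hochberg adjustment and a threshold of 0.05. A log2 fold change is the GR-mutant mean minus that of wild-type, and understates the change of low genes. The name table gave 29201 of 32520 IDs a symbol, shared in 6314 cases, and *cyp51* was matched as CYP51A1. Symbols were matched in RefSeq (GRCz12tu) only for chromosome sharing. Some genes of these pathways are not reported here. All members described are named, and from other lists up to 4 genes with the smallest p and those that passed. The members and lists were chosen with earlier results of these data known. Each choice was varied with a pseudocount of 0.5 or 5, without the filter or with a mean of at least 100, upper-quartile and equal-total scaling, a replicate block, no trend, edgeR 4.0.16 and DESeq2 1.42.0 on recovered reads, and each library left out. Replicate numbers in the titles did not pair the libraries. The fits were tested on simulated counts. Normalised counts carry gene length, so levels were not compared between genes. No pair of libraries was a duplicate. Plots came from matplotlib 3.10.9 (Python 3.11.15).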

Additional observations from a re-analysis of the deposited data

Results flagged for a closer look

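In 4 of the 70 sets of 6 brains (35 members in 2 genotypes) the highest or lowest brain stood apart from the rest of its genotype by Dixon's ratio, above the critical value of 0.625; chance marks about 1 in 20 such sets. For *hmgcs1* it was GR-mutant 1, the highest of its group at 1407 normalised counts. For *abca1b* it was GR-mutant 2, the highest at 924. Among wild-type brains, *pmvk* was highest in wild-type 2 at 176 and *scap* was lowest in wild-type 1 at 345.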

How the results depend on the processing

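Of 803 member values under 23 other settings, 747 kept their direction and their side of the threshold, 25 lost and 19 gained a call, and 12 changed sign, none of them with a call. *hmgcs1*, *ebp*, *srebf1* and *scd* passed in all 23. With equal totals, where the median of all genes moved to 0.09 because the deposited values sum to less in every GR-mutant library, 15 members rose, 10 of them sterol synthesis and 4 uptake, sensing and transport genes, the fatty acid median was 0.0245, 3020 genes rose and 1313 fell, and the values of *fdps*, *fasn* and *acaca* were 0.0073, 0.0245 and 0.0712. DESeq2 called 2 uptake, sensing and transport genes, and its rises over all genes are not given here. The replicate block, although the numbers pair nothing (correlations -0.15 to 0.08 over 5 numbers), gave 2 such genes, 976 rises over all genes and 4 sterol synthesis rises (*lss*, adjusted p = 0.0559, and *sc5d*, 0.0528, were lost). Leaving out each library gave 5 to 10 rises over the members, 3 to 7 sterol synthesis rises, 1 to 2 uptake, sensing and transport rises, and log2 fold changes of -0.0010 to 0.11 for *hsd17b7*, -0.0305 to 0.0094 for *acaca* and -0.25 to 0.14 for NPC2 (ENSDARG00000096979). The rises over all genes in those fits are not given here, so these counts cannot be set against a background. With wild-type 1 and 4 both left out, 0 members and 0 fatty acid genes fell, 831 genes rose and 1224 fell, and NPC2 (ENSDARG00000096979) and *acaca* were at 0.15 and 9.84e-05. The causes of these shifts were not tested. NPC2 (ENSDARG00000096979), with few counts, had a wide interval (-0.85 to 0.70 on the log2 scale).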

Other observations

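The spread between brains was described first for the sterol synthesis genes. The median coefficient of variation over the 18 tested genes was 10.5% in GR-mutant and 15.5% in wild-type brains, and it was lower in GR-mutant brains for 13 of 18 genes, against 58.1% of all tested genes, whose medians were 12.9% and 14.5%. With wild-type 1 and 4 left out, a setting chosen after seeing the data, it was lower for 11 of 18, against 50.7% of all tested genes, with medians of 10.5% in GR-mutant and 11.5% in wild-type brains, and over all tested genes 12.9% and 13.0%. With all libraries, the coefficient was lower in GR-mutant brains for 7 of 10 uptake, sensing and transport genes and 3 of 7 fatty acid synthesis genes. With wild-type 1 and 4 left out, it was lower for 7 of 10 and 5 of 7. For *scd* the coefficient was 6.74% in GR-mutant and 26.5% in wild-type brains. These values were not tested. GR-mutant 4 was the highest of its group in 6 of 18 sterol synthesis genes, against 18.1% of all tested genes. GR-mutant 1 and 2 were each the highest in 5, against 14.5% and 19.4% of all tested genes. GR-mutant 3 was the lowest in 7 of 18, against 18.0% of all tested genes.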
